A study of Mus musculus with 2 samples.

Results

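The genes that make polyamines and hold their level in check were followed in pluripotent stem cells of the mouse embryo after a short pulse of 4-thiouridine (4sU), which growing RNA chains take up in place of uridine. They were chosen by symbol as the protein-coding transcripts of Odc1, Srm, Sms, Amd1, Sat1, Oaz1, Oaz2 and Azin1 in the GENCODE M21 annotation of the GRCm38 genome. These 8 genes held 22 such transcripts, and 21 of them had a value, out of 49490 protein-coding transcripts and 121429 transcripts in all. The transcript without a row was Amd1-203. The cells were wild-type, feeder-depleted, XY, of the line DTCM23/49, and both libraries came from this line. They grew on gelatin in serum with leukemia inhibitory factor and received 200 µM 4sU for 10 min. RNA that carried 4sU was captured through biotin (the labeled library), and what stayed in solution gave the other (the unlabeled library). The labels name the latter preexisting RNA once and total RNA elsewhere, and here it was read as unlabeled RNA, which is how they describe the capture.

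There was 1 library of each kind, both of replicate 1. No value below therefore has a replicate error, no test was made, and each comparison describes these libraries only. The authors deposited an exon value and an intron value per transcript, a relative abundance per length that they call TPM. Exons and introns together added up to 10 times what TPM values would in each library, and the values are given as deposited. Read counts were not used here, so the depth behind a value is unknown. Introns took 15.4% of the labeled and 6.26% of the unlabeled library. The 9 embryonic stem cell markers all stood above 10 in the unlabeled library, from 72.9 to 6580. The 6 fibroblast markers, which would mark feeder cells, summed to 20.9, with 3 of them listed at 0. The 4 primitive endoderm markers summed to 14.3, and the 5 mesoderm and ectoderm markers to 101.2, of which Pax6 held 70.5. In bulk RNA, fewer cells of a type and less RNA per cell cannot be told apart.

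Polyamines (putrescine, spermidine and spermine) are small positively charged molecules that bind nucleic acids and that growing cells need. Ornithine decarboxylase (Odc1) makes putrescine, and the synthases Srm and Sms extend it to spermidine and then spermine with aminopropyl groups that the enzyme encoded by Amd1 prepares from S-adenosylmethionine. Spermidine/spermine acetyltransferase (Sat1) starts their breakdown and export. Antizymes (Oaz1, Oaz2) bind ornithine decarboxylase and send it to the proteasome, and the antizyme inhibitor Azin1, a relative of the enzyme without its activity, takes up antizyme instead. Amd1 is known to affect the self-renewal of embryonic stem cells.

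The antizymes carry a feature that bears on how their RNA was annotated and counted: the ribosome meets an early stop codon and must shift forward by 1 base to make the full protein, and polyamines raise the rate of that shift. The annotation handles the site in different ways, and some of its transcripts contain a gap of 1 or 4 bases there, written as if it were an intron. The sites are shown because they sort the isoforms that span them into forms with no gap, a 1-base gap or a 4-base gap. Isoforms can share a form: Oaz1-202, Oaz1-203 and Oaz1-207 each have a gap of 1 base, as do Oaz2-204 and Oaz2-206. The sequences were read from the annotated transcripts of GRCm38, on the plus strand, at chr10:80828271-80828319 for Oaz1. Capitals mark the base left out by Oaz1-207 in the ungapped form and, in the gapped forms, the bases on either side of the gap.
Oaz1-205, no gap: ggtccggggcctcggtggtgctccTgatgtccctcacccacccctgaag
Oaz1-207, gap of 1 base: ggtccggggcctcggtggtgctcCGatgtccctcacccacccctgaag
Oaz1-201, gap of 4 bases: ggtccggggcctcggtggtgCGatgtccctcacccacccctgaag

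Oaz2 showed the same forms at chr9:65686248-65686296, also on the plus strand and with the same use of capitals. Its ungapped form was annotated as a transcript without a coding sequence.
Oaz2-203, no gap: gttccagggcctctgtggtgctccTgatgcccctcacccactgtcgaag
Oaz2-206, gap of 1 base: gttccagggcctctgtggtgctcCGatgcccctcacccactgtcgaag
Oaz2-201, gap of 4 bases: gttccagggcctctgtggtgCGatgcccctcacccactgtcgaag

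A processed pseudogene of Oaz1 on chromosome 17, Oaz1-ps, held the ungapped Oaz1 sequence with 0 mismatches over these 49 bases. The gapped transcripts thus lack bases that the ungapped form and the pseudogene both have.

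The gene for the limiting enzyme of polyamine synthesis, Odc1, lies at chr12:17544794-17551084 on the plus strand, with 12 exons and 1 coding transcript, Odc1-201. Its exon value was 575.7 in the labeled and 643.4 in the unlabeled library, and its intron value was 65.5 and 9.30. Among the 8 genes it had the highest exon value after Oaz1 in both libraries. Because each library was scaled to its own total, a labeled to unlabeled ratio has meaning only against other genes, and ratios were divided by the median of 14127 protein-coding genes, which was 0.837. Odc1 came out at 1.07 times this median (log2 0.10), at percentile 53.2 of all genes. Its place near the median depended on the setting: the log2 value ranged from -0.45, with the genes that share its sequence added, to 0.24, and it was -0.16 without division by the median.

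**Figure D1:**
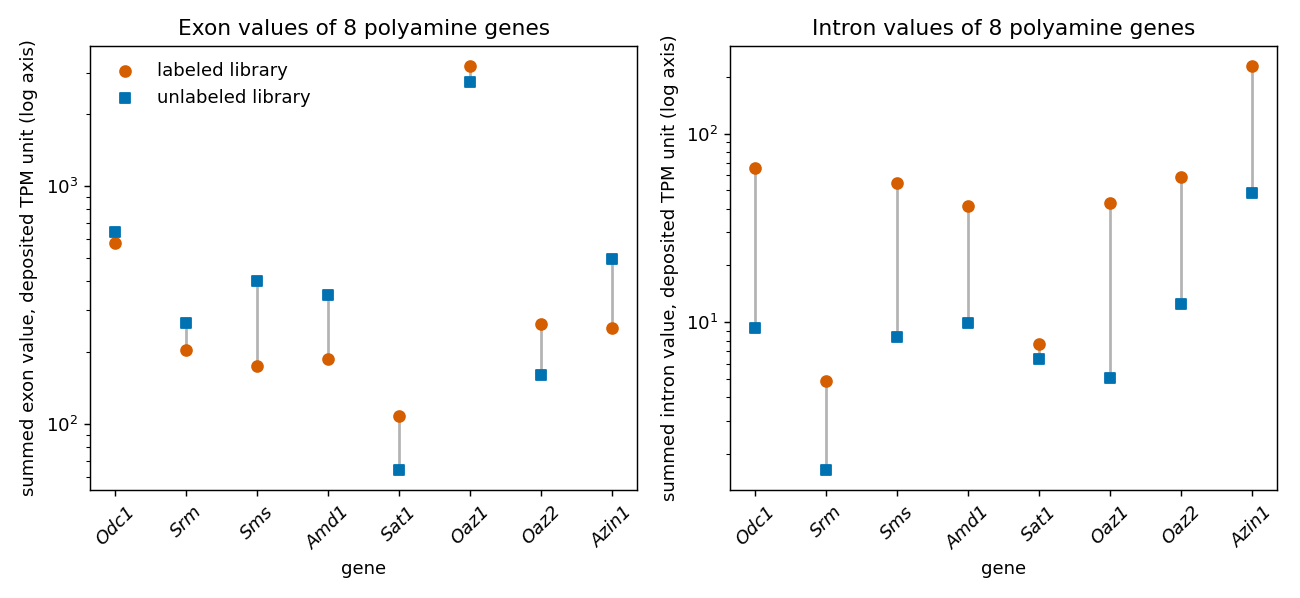
Summed exon values (left) and intron values (right) of the coding transcripts of the 8 polyamine genes in the deposited TPM unit, on log axes, with circles for the labeled and squares for the unlabeled library. Intron values were higher in the labeled library in all 8 genes, as in the median gene (3.90 times), while exon values went either way. Sat1 was the closest pair (7.68 and 6.40), and only 3.74% of all genes had an intron ratio below its 1.20.

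The genes that turn putrescine into the longer polyamines had ratios below that of the median gene, though for Srm this depended on the setting. Srm, spermidine synthase, at chr4:148591503-148594619 on the plus strand, had an exon value of 203.7 in labeled and 265.9 in unlabeled RNA. This put it at 0.915 times the median (log2 -0.13), where the sign turned with a minimum mean exon value of 10 (0.02). Sms, spermine synthase, at chrX:157443855-157492287 on the minus strand, had 174.9 and 397.2. Its ratio was the lowest of the 8 genes, 0.526 times the median (log2 -0.93, percentile 16.7), except with the highest transcript of each gene only, where Azin1 was lower (log2 -1.12 against -0.88). Amd1, at chr10:40287458-40302186 on the minus strand, had 187.6 and 348.2, or 0.643 times the median (log2 -0.64, percentile 26.6). Sms and Amd1 stayed below the median in every setting tried, from -1.24 to -0.78 for Sms and from -0.99 to -0.41 for Amd1.

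Sat1, at chrX:155213132-155216449 on the minus strand, had the highest ratio of the 8 genes, except with the highest transcript of each gene only, where Oaz2 was higher (log2 1.18 against 1.15). Its exon value was 107.7 in the labeled and 64.0 in the unlabeled library, the lowest level of the 8 genes in both. The ratio was 2.01 times the median (log2 1.01, percentile 78.3), and the log2 value ranged from 0.68 to 1.15 over the settings. Both coding transcripts moved alike: Sat1-201 had 61.1 and 34.0, and Sat1-202 had 46.6 and 30.0.

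The antizymes were above the median and their inhibitor below it. Oaz1, at chr10:80826656-80829290 on the plus strand, had by far the highest exon value of the 8 genes, 3191 in the labeled and 2726 in the unlabeled library, and a ratio of 1.40 times the median (log2 0.48, percentile 66.0). Oaz2, at chr9:65676548-65690300 on the plus strand, had 263.2 and 160.8, and a ratio of 1.96 times the median (log2 0.97, percentile 77.5). In the labeled library Oaz1 was thus the more abundant antizyme by an order of magnitude, on a scale that is per length. Azin1, at chr15:38487427-38519266 on the minus strand, had 252.6 and 493.7, and a ratio of 0.611 times the median (log2 -0.71). The direction held in every setting tried, from 0.14 to 0.63 for Oaz1, from 0.54 to 1.18 for Oaz2 and from -1.12 to -0.57 for Azin1.

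Counted at 2 times the median or more, 1 of the 8 genes passed (Sat1), where 21.9% of all genes did. At 1/2 of the median or less, 0 of the 8 passed, where 14.8% did. Just inside and just outside the upper limit lay Sat1 (2.01) and Oaz2 (1.96), and nearest to the lower limit lay Sms (0.526). The median log2 ratio of the 8 genes was -0.02 against 0 for all. Their levels were higher than those of most genes: the median exon value was 228.2 labeled and 372.7 unlabeled, against 34.4 and 38.0 over all genes. From high to low the unlabeled exon values ran Oaz1, Odc1, Azin1, Sms, Amd1, Srm, Oaz2 and Sat1. In the labeled library the order was Oaz1, Odc1, Oaz2, Azin1, Srm, Amd1, Sms and Sat1. Without replicates, which neighbours in these orders differ could not be judged.

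**Figure D2:**
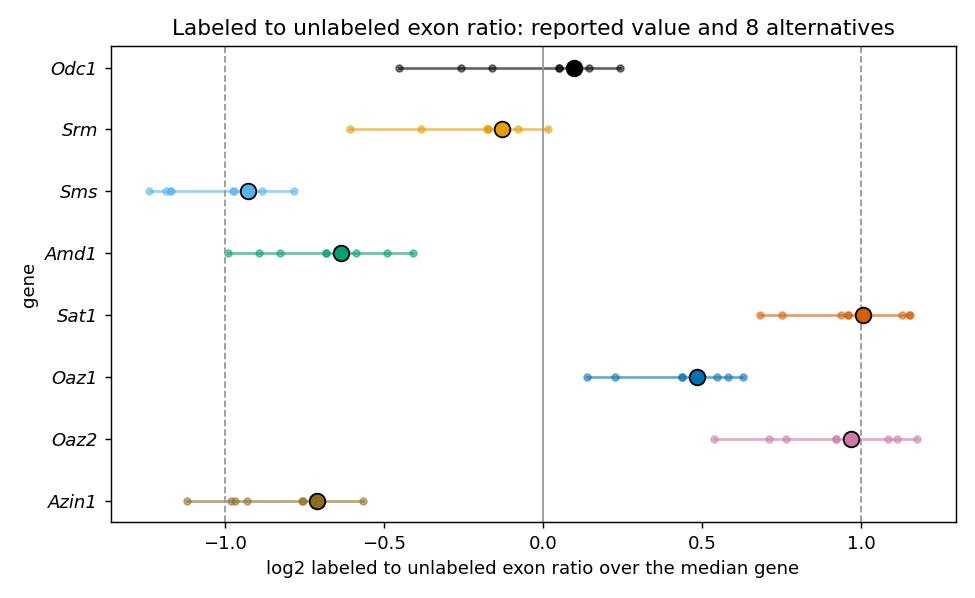
Labeled to unlabeled exon ratio of each polyamine gene as log2 over the median gene (the ratio as deposited for the setting without centring), with the reported value as a large outlined point and 8 alternative settings as small points on a line. Dashed lines mark 2 times and 1/2 of the median. Sat1 and Oaz2 lie around the upper line, Sms near the lower one, and only Odc1 and Srm have points on both sides of 0.

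Introns mark RNA that has not been spliced yet, and the intron to exon ratio of each gene was compared between new and older RNA. For Odc1 this ratio was 0.114 in labeled and 0.0145 in unlabeled RNA, and for Amd1 it was 0.221 and 0.0284. For Sms it was 0.311 and 0.0211, the widest gap of the 8 genes, at 14.7 times. The coding transcript of Srm was low in both, with 0.0239 and 0.00621, but over all biotypes Srm had 0.336 and 0.158. In coding transcripts the synthesis genes were thus all more intron-rich in the labeled library, by 3.85 (Srm) to 14.7 times, around an all-gene median of 4.65 times. The gap of Srm was smaller over all biotypes. The exon values of Odc1, Amd1 and Sms depend on how reads were divided with their copies, described below. The part of this in the intron to exon ratios was not tested.

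Among the regulators, Oaz1 had the lowest intron to exon ratios of the 8 genes, 0.0135 labeled and 0.00187 unlabeled. Its intron value rested on little sequence that is intron in all transcripts, since 95.1% of the intron bases of Oaz1-201 lie in exons of other annotated transcripts. Oaz2 had 0.224 and 0.0780, and Azin1 had 0.901 and 0.0985. Azin1 was the most intron-rich of the 8 genes in labeled RNA and had the highest summed intron value, 227.6 labeled and 48.6 unlabeled. This sum was over 4 isoforms, of which the highest, Azin1-204, had 64.4 labeled and 14.1 unlabeled. The 1 coding transcript of Odc1 had 65.5 and 9.30.

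Sat1 went the other way. In its coding transcripts, the intron value was almost the same in both libraries, 7.68 labeled and 6.40 unlabeled. This was a ratio of 1.20 where the median gene had 3.90, which placed it at percentile 3.74. Its intron to exon ratio was 0.0713 in labeled and 0.100 in unlabeled RNA, lower in the labeled library, which held for 9.06% of 13031 genes. This order depended on which transcripts were summed: over all biotypes the ratio was 0.145 labeled and 0.0735 unlabeled. Sat1 has 5 transcripts of other biotypes, and the retained-intron transcript Sat1-204 had an exon value of 61.1 labeled and 24.3 unlabeled. Its intron value was 14.8 labeled and was listed at 0 in the unlabeled library. In the same way Sat1-205, also a retained-intron transcript, had exon values of 29.7 and 13.8 and intron values of 11.9 and 0. The near-equal intron values of Sat1 therefore hold for its coding transcripts only. They leave out Sat1-204 and Sat1-205, whose labeled intron values were each larger. Of the intron bases of Sat1-201, 74.8% lie in exons of other annotated transcripts, so reads there could have been given to either, and the part of this in the result was not tested.

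Summed this way, the 8 genes had a median intron to exon ratio of 0.167 in labeled and 0.0248 in unlabeled RNA, against 0.577 and 0.122 over 13031 genes. Only Azin1 exceeded the labeled median of all genes, and none exceeded the unlabeled one. Taking the 20 transcripts with all values above 0, the medians were 0.157 and 0.0283, against 0.570 and 0.111 over 31386 transcripts. The remaining transcript, Oaz1-204, had its introns listed at 0 in both libraries.

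If a transcript is made, spliced and degraded at constant rates, its labeled ratio b must lie under 1 and above its unlabeled ratio a. Transcripts were therefore placed on the plane of both ratios, where the line b = 1/(2 - a) bounds from below the region where a single pair of rates must exist. Of the 20 transcripts, 13 lay between the diagonal and that line (44.2% of all transcripts) and 2 above it (22.5% of all). The 2 above it were Azin1-201 and Azin1-203. Among the 13 were Oaz1-201, Oaz1-202, Oaz1-203, Oaz1-205, Oaz1-207, Oaz2-201, Oaz2-202 and Oaz2-206. Isoforms of a gene share sequence, so these counts are not of independent transcripts. A labeled ratio of 1 or more was found in 3 transcripts, Oaz2-204, Azin1-204 and Azin1-207, where 28.2% of all transcripts had one. Both Sat1 transcripts, Sat1-201 (labeled 0.0505, unlabeled 0.0809) and Sat1-202 (0.0986 and 0.122), fell below the diagonal, as did 5.1% of all transcripts. Genes with all of their transcripts there made up 4.28% of 12652. Both transcripts stayed below the diagonal with leakage subtracted and with either other minimum, but these settings could not have lifted them above it. Leakage subtraction lowers the labeled ratio of such a transcript, and a minimum leaves its ratios as they are. The 2 Sat1 transcripts share most of their exons and introns and are not independent.

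**Figure D3:**
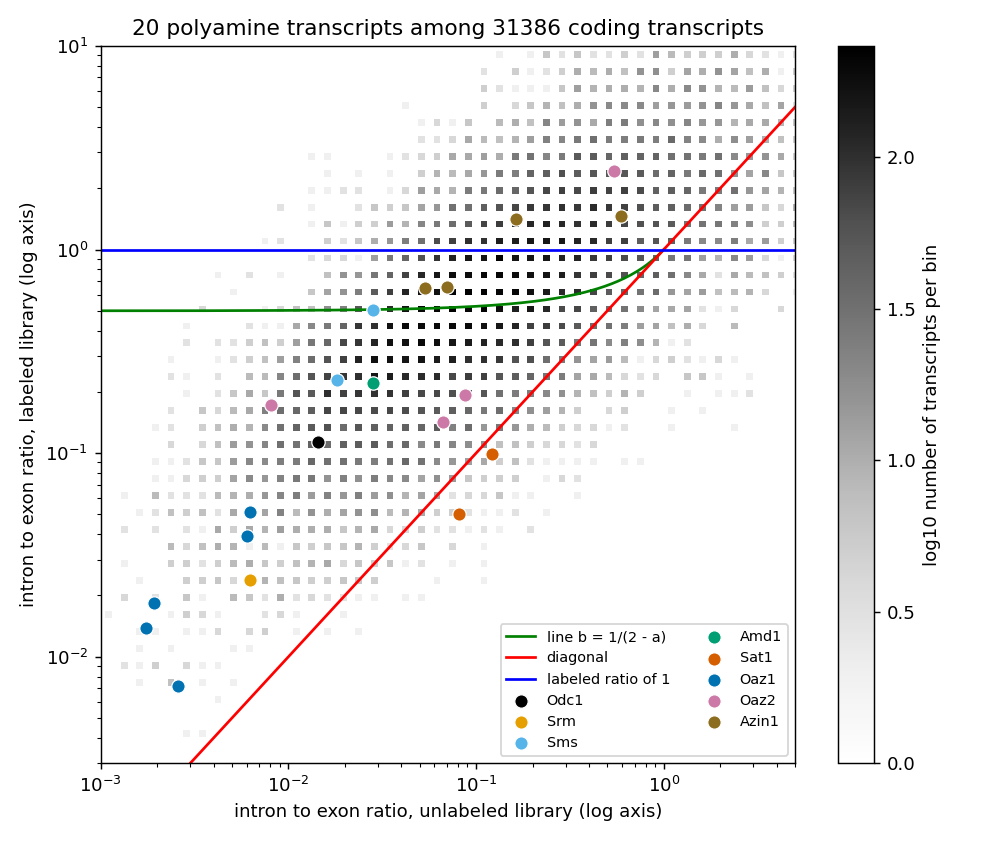
Intron to exon ratio in the labeled library against that in the unlabeled library (log axes) for the 20 polyamine transcripts (colored points) over the density of 31386 coding transcripts (grey, log10 of the number per bin, within the axis limits). Both Sat1 points lie below the red diagonal, 3 points lie above the blue line at a labeled ratio of 1, and the Oaz1 points sit at the lower left.

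The values of isoforms are less certain than those of a gene, because isoforms share most of their sequence and the split rests on how the counting shared the reads. Of the 50-base windows of Azin1-203 and Azin1-207, 100% occur in other isoforms of Azin1, as do 90.3% of those of Azin1-204. In Azin1, Azin1-203 held the largest share of the coding exon value (41.8% over the libraries), with 84.8 labeled and 227.5 unlabeled. Azin1-201 had 88.4 and 184.0. The short transcript Azin1-204 went the other way, with 44.01 labeled and 23.97 unlabeled, so its share was 17.4% in labeled and 4.85% in unlabeled RNA. Azin1-207 had 35.4 and 58.3. Intron values of these isoforms were near one another, from 49.9 to 64.4 labeled and from 9.56 to 14.1 unlabeled, while their exon values were not. A short noncoding transcript of the gene, Azin1-208, had a still larger gap between the libraries, with 45.7 labeled and 8.44 unlabeled.

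Oaz1 was split over 6 coding transcripts. The highest was Oaz1-204, with 1084 labeled and 894.5 unlabeled, or 33.4% of the coding exon value; it begins after the frameshift site. Oaz1-201, annotated with the 4-base gap shown earlier, had 681.4 and 623.0. Oaz1-207, the highest of the transcripts with a 1-base gap, had 618.8 and 565.1. Oaz1-205, without a gap, had 370.6 and 293.1. All 6 had the higher value in the labeled library, with ratios from 1.05 (Oaz1-202) to 1.46 (Oaz1-203). The gapped forms differ from the ungapped one at this site only by the bases left out, and 100% of the 50-base windows of Oaz1-207 occur in other isoforms.

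In Oaz2 the gapped transcripts Oaz2-206 and Oaz2-201 were both higher in the labeled library. A further transcript with a 1-base gap, Oaz2-204, was lower there, with 6.75 labeled and 7.51 unlabeled. Oaz2-206 (1-base gap) had 107.1 labeled and 58.6 unlabeled, and Oaz2-201 (4-base gap) had 84.5 and 47.6. Oaz2-202, which starts after the frameshift site, had 64.9 and 47.1, and its intron value was 11.2 labeled and 0.380 unlabeled. The ungapped Oaz2-203 was low, at 9.84 labeled and 16.2 unlabeled. Sms was divided between the full-length Sms-201, with 121.7 and 277.5, and the short Sms-202, with 53.2 and 119.7, whose shares were 69.8% and 30.2%. Among transcripts of other biotypes, Srm-202 stood out with an intron value of 177.9 labeled and 122.6 unlabeled, above the 4.87 and 1.65 of the coding Srm-201.

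Reads could be placed on a polyamine gene or on its copies, since several of these genes have many processed pseudogenes. Amd1 was the clearest case. Its copy Amd2 on the same chromosome, a gene without introns annotated as protein-coding, was 99.9% identical over the 1002 coding bases, and 86.1% of the 50-base windows of Amd1 also occur in Amd2. A stretch of the coding sequence, bases 766 to 825 from the start codon, shows how little tells them apart, with capitals where a copy differs from Amd1. Amd1 and Amd2 lie on the minus strand of chromosome 10 and the pseudogene Amd-ps4 on the minus strand of chromosome 4 (GRCm38).
Amd1-201: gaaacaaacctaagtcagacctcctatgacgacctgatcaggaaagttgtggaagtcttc
Amd2: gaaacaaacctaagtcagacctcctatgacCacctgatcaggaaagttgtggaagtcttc
Amd-ps4: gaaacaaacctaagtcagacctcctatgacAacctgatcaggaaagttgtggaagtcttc

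The exon values of these copies were close to those of Amd1 itself (187.6 labeled, 348.2 unlabeled). Amd2 had 198.4 and 364.2, and Amd-ps4 had 243.3 and 357.0. In all, 6 genes with a value shared windows with Amd1 and summed to 877.5 labeled and 1341 unlabeled, more than Amd1. The level of Amd1 is therefore uncertain, while its introns, which processed copies lack, had 41.5 labeled and 9.88 unlabeled.

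Odc1 shared windows with 13 genes that had a value, and 42.2% of its windows occur in another gene. Together they summed to 2063 labeled and 3674 unlabeled, which is more than Odc1 in both libraries. The highest was Gm17709, with 452.6 and 790.1. Of the 13, 12 had the lower value in labeled RNA, as did the median protein-coding gene, with a ratio of 0.837. Since the 13 share sequence with Odc1, their values are not independent. Sms had Sms-ps, 100% identical over 1098 coding bases, with 114.2 and 342.6. The 4 genes with a value that shared windows with Sms, Sms-ps among them, summed to 280.8 and 826.0. With these genes added, the log2 ratio was -0.45 for Odc1, -1.17 for Sms and -0.41 for Amd1.

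Oaz1-ps, 99.9% identical to Oaz1 over the coding bases, had 326.0 labeled and 285.5 unlabeled. Of the windows of Oaz1-205, 94.9% occur in it, against 52.2% of those of Oaz1-201. Among the coding isoforms of Oaz1, the value of the ungapped one thus depends most on how reads were divided with this copy. Srm shared 2.40% of its windows with another gene, Sat1-201 shared 7.28%, and Azin1 shared none. The values of Srm, Sat1 and Azin1 thus rest least on how reads were divided between genes.

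**Figure D4:**
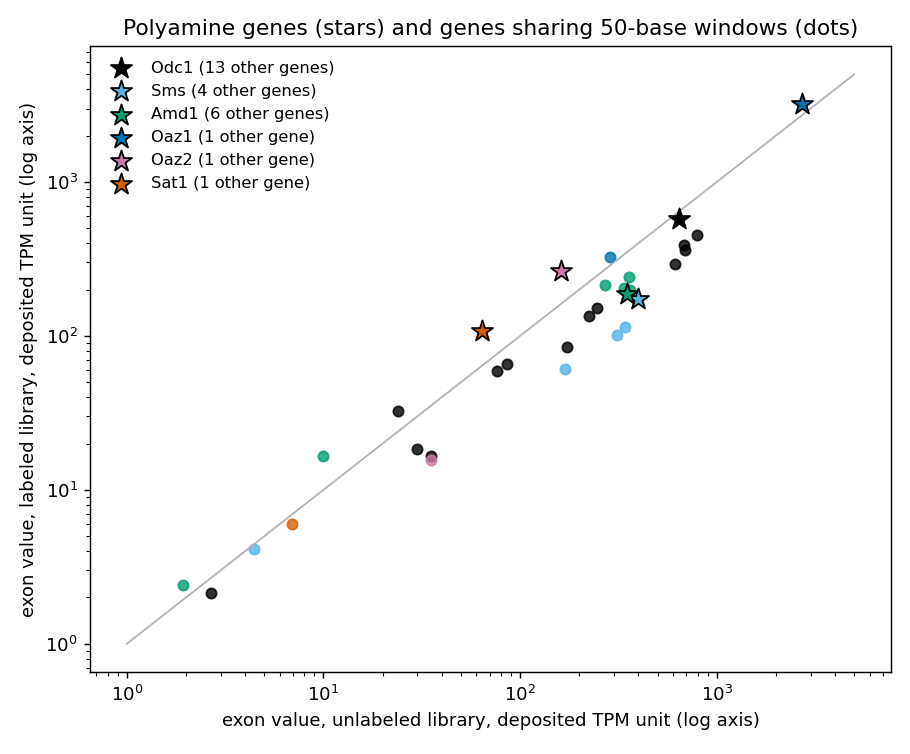
Exon values in the labeled against the unlabeled library (log axes, deposited TPM unit) for 6 polyamine genes (stars) and the genes that share 50-base windows with them (dots of the same color), with the line of equal values in grey. The dots of Odc1, Sms and Amd1 reach or pass the levels of several stars. Most of them lie under the line, as a gene at the median ratio of 0.837 would.

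Uridine content bears on 4sU capture, since a transcript with more uridines can take up more label. The share of T was 33.2% in Azin1-201, 30.6% in Amd1-201, 28.6% in Sat1-201 and 28.3% in Sms-201. It was 25.2% in Oaz2-206, 24.5% in Odc1-201, 22.5% in Oaz1-201 and 20.0% in Srm-201, against a median of 23.7% (quartiles 21.3 and 26.4) over 31386 transcripts. The number of T per transcript gave another order. It was 1617 in Azin1-201, 1052 in Sms-201, 980 in Amd1-201 and 542 in Odc1-201. Lower numbers were found in Oaz2-206 (465), Sat1-201 (332), Srm-201 (268) and Oaz1-201 (241). The part of uridine content in the exon ratios was not tested.

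Rates follow from both ratios under the constant-rate model, and they were computed for the 15 transcripts in its domain. The equations had an exact solution for 3 of the 20 transcripts, where 28.5% of all 31386 had one. The degradation half-life was 39.6 min for Azin1-201, 49.8 min for Azin1-203 and 28.8 min for Sms-202. For the other 12 no pair of rates gave the measured ratios, and the nearest point on a curve set by the equations was used, as for Odc1-201 (36.1 min), Amd1-201 (18.6 min), Sms-201 (16.3 min), Srm-201 (158.0 min), Oaz2-206 (38.7 min) and Oaz1-201 (221.9 min). The median over the 15 was 39.6 min against 19.0 min over 20920 transcripts. These medians are not like for like: 8949 of the 20920 had an exact solution against 3 of the 15. Several of the 15 are also overlapping isoforms of Oaz1. The values of the 12 without an exact solution depended on the method. With both rates left free, which came nearer to the measured ratios in all 12 without matching them, they were 4.94 min for Odc1-201, 3.94 min for Amd1-201, 6.51 min for Srm-201 and 8.72 min for Oaz1-201. The 3 exact values did not move with that choice, but reading the second library as total RNA gave 100.2, 129.2 and 148.4 min for Azin1-201, Azin1-203 and Sms-202. That reading also changed the order of the transcripts without an exact solution. It gave 84.6 min for Sms-201, 51.5 min for Oaz1-201, 50.9 min for Odc1-201 and 50.6 min for Amd1-201. Srm-201 had 23.1 min and Oaz2-206 had 10.8 min. With leakage subtracted, Azin1-201 had 365.6 min and Sms-202 had 173.9 min, and Azin1-203 left the domain of the model. Several of these transcripts, Odc1-201, Amd1-201 and Sms-201 among them, share exon sequence with copies, and the part of this in their half-lives was not tested. No half-life could be given for Sat1, whose ratios lie outside the model.

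The wider pathway was described with a list of 30 other genes of polyamine breakdown and transport, methionine and ornithine metabolism, methionine salvage and hypusination, the change that spermidine makes to the translation factor eIF5A. The list also held Amd2, Azin2 and Oaz3. Since 86.1% of the windows of Amd1 occur in Amd2, the value of Amd2 is not independent of that of Amd1. Of the 30 genes, 27 had both exon values above 0 and a mean above 1. At 2 times the median or more stood 4 genes, where 21.9% of all genes did, and at 1/2 or less another 4, where 14.8% did. Between the limits lay 19, and the median log2 ratio was 0.03 against 0 over all genes. Named here are those with a mean exon value of at least 10.

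Higher in the labeled library were Mri1, an enzyme of methionine salvage, with 58.6 labeled and 23.5 unlabeled (log2 1.58), and Dhps, which starts hypusination, with 22.5 and 9.96 (log2 1.43). Lower were Eif5a2, with 10.8 and 38.8 (log2 -1.59), Ahcy, which removes S-adenosylhomocysteine, with 184.6 and 591.8 (log2 -1.42), and Atp13a3, a polyamine transporter, with 246.3 and 762.5 (log2 -1.37). Adi1, another salvage enzyme, had 154.9 and 456.1 (log2 -1.30). The other salvage genes of the list lay between the limits, with log2 ratios of -0.37 (Mtap), 0.11 (Enoph1) and 0.54 (Apip). The 2 further genes past the upper limit, Sat2 and Arg1, had exon values of 10.1 and 9.21 in the labeled library and under 1 in the unlabeled one. The highest level of the list was that of Eif5a, 22189 labeled and 36525 unlabeled, with a log2 ratio of -0.46.

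Genes with a pattern most like Odc1 were sought by the distance between transcripts over the log2 of 4 values (exon and intron, labeled and unlabeled) in these 2 libraries. Among the nearest to Odc1-201 were transcripts of Hmmr (distance 0.33), Eif2s1 (0.36), Tubb4b (0.49) and H3f3a (0.51). Eif2s1, for instance, had exon values of 576.7 and 743.3 and intron values of 70.2 and 11.2. For Oaz1 the highest transcript with intron signal, Oaz1-201, was used. Its neighbours lay farther away, with Dbi (0.56), Slc25a5 (0.81), H3f3b (0.85), Hist1h2bc (0.92) and Dppa3 (0.94).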

How the data were processed

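A labeled and an unlabeled library of wild-type stem cells were used. The authors aligned reads to exonic and intronic sequences and quantified them, with STAR 2.5.0 and RSEM in the submitters' processing notes (build mm10, GRCm38), and deposited relative abundances called TPM. Since each column sums to 10 times a TPM total, these values were treated as a signal in the deposited unit. The depth is unknown, and intervals could not be given.

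Transcripts were classed with GENCODE M21, where the study used Ensembl annotation. Exon and intron values were summed over the protein-coding transcripts of a gene. Genes entered with a mean exon value above 1 and both exon values above 0, and transcripts with the same minimum and all 4 values above 0. Ratios above 2 or under 1/2 of the median gene were counted. Rates were solved on 3999 grid points after the study's equations, in a solver tested on simulated data. Shared sequence was measured in 50-base windows of the annotated transcripts. The members and lists were chosen with earlier results of these data known. All 8 genes were named, with each transcript that was the highest of its gene or held 10% of it, as were genes of the pathway list past the limits with a mean of at least 10 and the 5 nearest genes to Odc1 and Oaz1. Transcripts named beyond this rule (Azin1-204, Azin1-208, Srm-202, Sat1-204, Sat1-205, Oaz1-202, Oaz1-203, Oaz2-203, Oaz2-204, Sat2, Arg1, Eif5a, Mtap, Enoph1 and Apip) were chosen after their values were seen. Alternatives were other centrings, transcript sets, minimums, a pseudocount of 0.1, subtraction of leakage (0.142 times the unlabeled value) and addition of copies. Other replicates were not analysed here, and 1 of the 5 genes nearest to Odc1 is not reported here. Computations used scipy 1.17.1, numpy 2.4.6, pandas 2.3.3, biopython 1.88 and matplotlib 3.10.9 under Python 3.11.15.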

Additional observations from a re-analysis of the deposited data

How the results depend on the processing

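No paired analysis was possible because no test was made with 1 library of each kind. Of 60 alternatives to the main counts and medians, 40 stayed within 1.5 times the reported value and 20 did not. For single genes and transcripts 117 of 153 stayed, and most of the other 36 were half-lives. The count of polyamine genes at 2 times the median or more was 1, became 0 without centring, with all biotypes, with a pseudocount of 0.1, without a minimum and with copies added, and became 2 with the highest transcript only, with a minimum of 10 and with leakage subtracted, where Oaz2 joined Sat1. The count at 1/2 of the median or less was 0 and became 1 without centring, with all biotypes, with leakage subtracted and with copies added (Sms in each), and with the highest transcript only (Azin1). In the pathway list, the upper count fell from 4 to 2 with a minimum of 10, and the lower count rose from 4 to 7 without centring. Over all biotypes the median intron to exon ratio was 0.278 labeled and 0.0509 unlabeled. The median half-life was 6.44 min with both rates left free and 75.3 min with leakage subtracted. The median share of the highest coding transcript of a gene was 62.6%, and 33.1% of all transcripts of the gene. Leaving transcripts in or out explains the last value by construction, and for the others the cause was not tested. Leakage subtraction left 6 of 20 transcripts outside the model instead of 5. The 2 Sat1 transcripts stayed below the diagonal there and with either other minimum, but these settings could not have lifted them above it. With unknown depth, low values such as the 0.380 of Oaz2-202 introns have no error, and a value listed at 0 may be a failed estimate.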
